A study of Apis mellifera with 4 samples.

Results

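The genes described here are the honeybee (Apis mellifera) genes that carried only a placeholder name, LOC and a number, and had at least 20 annotated exons. Of 8586 placeholder-named rows among 11156 genes, 170 had at least 20 exons, and the 163 with at least 10 exon reads summed over all samples are called many-exon genes below. The 7 left out had between 0 and 6 reads, and the lowest gene kept had 15. At the limit on exons, the 27 genes with 20 exons had a median RPKM of 6.92 and the 33 genes with 19 exons, just outside, of 6.11. They are compared with 6084 placeholder-named genes with 1 to 19 exons and at least 10 reads, called genes with fewer exons, and at times with 124 genes that had a proper name and at least 20 exons.

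RNA was sequenced from whole larvae aged 60 hours, with 2 samples of queens and 2 samples of workers, each a pool of 20 larvae. Queen larvae had been grafted after hatching into queen cells and reared in a hive without a queen, and worker larvae stayed ungrafted in a hive with its queen. Caste is therefore joined to grafting and to the hive, and these cannot be told apart. All larvae came from queens inseminated by a single drone. Because whole larvae were pooled, fewer cells of a type and less RNA per cell cannot be told apart either.

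A gene with many exons is copied as a long precursor RNA from which the introns are removed and the exons joined. A read that crosses an exon-exon junction comes from joined RNA. A read from an intron can come from precursor RNA, a retained intron, an exon missing from the annotation or another gene at the same place.

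The samples held 4949093 to 5476218 exon reads. The 10 most abundant genes of the whole table took 6.88% and 7.02% of exon reads in queens and 24.9% and 23.4% in workers. The scaling factors of edgeR's TMM method were 1.21 and 1.20 in queens and 0.828 and 0.830 in workers. RPKM relates exon reads to exon length and to all reads mapped to genes, and does not take this into account. Levels are therefore given as RPKM, and castes are compared by scaled RPKM. In scaled RPKM, the total of exon reads multiplied by the TMM factor takes the place of all reads mapped to genes.

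The many-exon genes were long and moderately expressed. They had a median of 23 exons and a maximum of 58, and 134 had 20 to 29 exons, 15 had 30 to 39 and 14 had 40 or more. Their median exon length was 6188 bases and ranged from 3107 to 26254 bases. Exons averaged 236 bases in the median many-exon gene and 300.0 bases in the median gene with fewer exons. The annotation gave 1 transcript for 158 of them and 2 transcripts for 5. They lay on 94 scaffolds of the Amel_4.5 assembly, at most 6 on any scaffold. A symbol was found in RefSeq (Amel_HAv3.1) for only 2 of the 161 that matched, brp for LOC409012 and SPG11 for LOC726567. In Drosophila, brp encodes bruchpilot, a protein of the presynaptic active zone.

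Among genes with at least 10 reads, the many-exon genes were less abundant per length than genes with fewer exons, although they gathered more reads. That limit asks for a higher RPKM in shorter genes, and the median exon length was 6188 bases against 1847.5. It left out 7 of 170 many-exon rows, while 6247 of all 8586 placeholder-named rows passed it. The order of the sets without this limit was not tested. Their median was 1128 reads and a mean RPKM of 7.68, against 524.5 reads and an RPKM of 11.2 for genes with fewer exons. Named genes with at least 20 exons had a median RPKM of 10.9. Across exon numbers the median RPKM of placeholder-named genes was 7.49 at 1 exon, 10.04 at 2 to 4, 12.3 at 5 to 9, 11.2 at 10 to 19, 7.46 at 20 to 29, 10.2 at 30 to 39 and 8.54 at 40 or more. All 163 had at least 1 exon read in every sample. A mean RPKM of at least 100 was reached by 7 of them, and 19 had a mean RPKM under 1.

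A few genes held much of the signal. The 10 with most reads had 49.1% of all reads on many-exon genes. LOC412111 was the most abundant, with RPKM of 382 and 354 in queens and 476 and 436 in workers. It was followed by LOC409619 (mean RPKM 303), LOC552249 (209), LOC408551 (176), LOC727192 (172), LOC408889 (130) and LOC408552 (115). LOC413341, LOC552031 and LOC725732 completed the 10 highest, with mean RPKM of 76.4, 66.4 and 58.9. LOC408889 was annotated by the study as similar to HLA-B-associated transcript 3. The genes with the most exons were far lower. LOC726908 (58 exons) had a mean RPKM of 12.0, LOC413968 (55) 11.8, LOC551947 (54) 7.52, LOC724172 (52) 9.56, LOC727221 (51) 7.36, LOC725593 (50) 3.31, LOC412281 (49) 40.4 and LOC409722 (49) 39.6. LOC411301 (58 exons) and LOC413585 (50 exons) were near the limit of detection, with 36 and 32 exon reads in all.

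Reads matched 1 place for most many-exon genes. All exon reads were single matches in 91 of 163, and under 50% were in 2, LOC725552 (43.9%) and LOC413341 (46.1%). LOC411277 followed with 52.6%. Values of these 3 genes are uncertain, since their reads also match elsewhere.

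Between castes, the many-exon genes that differed were mostly higher in workers. Of 157 tested, 27 were higher in workers and 4 in queens at an adjusted p below 0.05 (edgeR quasi-likelihood test, Benjamini-Hochberg adjustment over 7833 genes). The 27 were 17.2% of those tested and the 4 were 2.55%. Over all 7833 genes 12.0% passed toward workers and 6.32% toward queens, and over the 5455 genes with fewer exons 11.8% and 5.90%. Named genes with at least 20 exons had 21.01% and 3.36% of 119. The median log2 fold change, queens over workers, was -0.10 for many-exon genes, 0.01 for genes with fewer exons and -0.13 for named genes with at least 20 exons. The 6 that were not tested did not pass the filter on low counts. No exact permutation test of 2 samples against 2 can give a p below 0.33, and the calls use a spread that edgeR estimates over many genes together.

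The split depended on scaling. With library totals that leave out the 10 most abundant genes, 13.4% of the many-exon genes passed toward queens and 13.4% toward workers. Over all genes these shares were 18.2% and 8.30%. With library totals in place of TMM factors, 40.1% of the many-exon genes passed the test toward queens and 8.28% toward workers, against 47.3% and 6.20% of all genes. That scaling moved the median log2 fold change of all genes from 0.01 to 0.55, and of the many-exon genes from -0.10 to 0.44. Relative to the median of all genes, the median of the many-exon genes was -0.11 under either scaling. A change of scaling shifts all genes nearly alike, so this difference could hardly move. The medians of many-exon genes and all genes were -0.006 and 0.012 without worker replicate 1, and -0.22 and 0.011 without worker replicate 2. Without worker replicate 1, 7.59% of the many-exon genes and 4.48% of all genes were higher in workers, and without worker replicate 2, 6.29% and 3.17%.

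Depth also differs between the sets. In the band of 100 to under 1000 reads, 12 of 60 many-exon genes (20%) passed toward workers and 0 toward queens, against 8.12% and 4.45% of genes with fewer exons. In the band of 1000 to under 10000 reads the order turned, with 11.7% of 77 many-exon genes higher in workers and 18.1% of genes with fewer exons. At 10000 reads or more, 6 of 13 many-exon genes (46.2%) and 33.1% of genes with fewer exons were higher in workers. No many-exon gene with 10 to under 100 reads was called, of 7 tested.

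Calls were most frequent among the genes with most exons. Of the 12 tested genes with 40 or more exons, 6 were higher in workers and none in queens, and 9 had a log2 fold change below 0. The 6 were LOC727221 (-1.92), LOC100578899 (-1.85), LOC725593 (-1.53), LOC100577456 (-1.20), LOC409722 (-1.09) and LOC413968 (-0.86). With 20 to 29 exons 14.6% of 130 were higher in workers, and with 30 to 39 exons 13.3% of 15. Genes with 10 to 19 exons gave 14.4%, with 5 to 9 exons 12.3% and with 2 to 4 exons 9.46%.

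**Figure D1:**
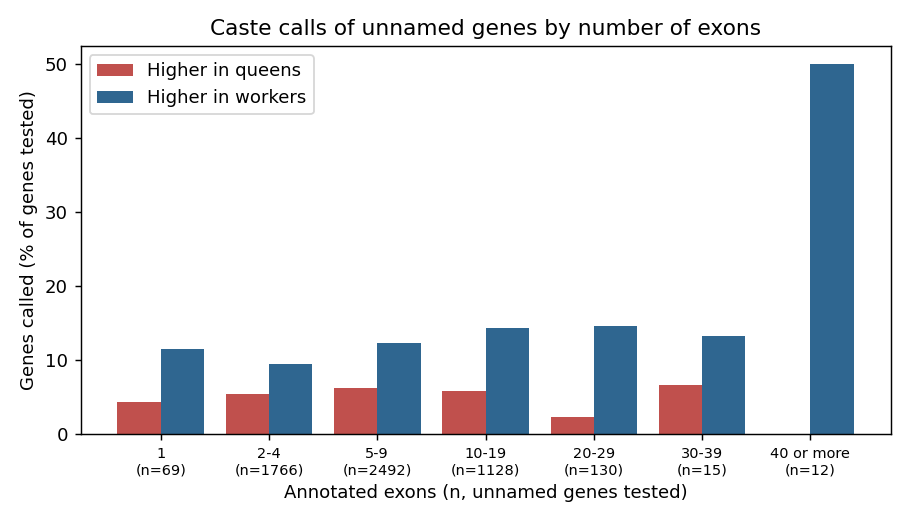
Percent of tested placeholder-named genes called higher in queens (red) or in workers (blue) by edgeR, by number of annotated exons, with the number tested under each bin. The last bin, 40 or more exons, holds 12 genes, of which 50% were higher in workers.

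LOC551319, at positions 384041 to 432237 of scaffold NW_003378175 (Amel_4.5, the deposited gene region), had the longest exon sequence of the many-exon genes, 26254 bases in 32 exons, and the largest difference toward workers. It had 2548 and 3683 exon reads in queens and 11120 and 12681 in workers, which gave scaled RPKM of 15.3 and 23.7 against 93.4 and 111. Both worker samples lay above both queen samples. The log2 fold change was -2.39 ± 0.23 (SE, n = 2 and 2; edgeR adjusted p = 0.00342).

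LOC413936 (28 exons) had 83 and 104 reads in queens and 372 and 314 in workers, with a log2 fold change of -2.33 ± 0.19 (edgeR adjusted p = 0.00212). LOC727221 (51 exons) had 262 and 237 reads in queens and 699 and 668 in workers, the replicates of each caste lying close together (-1.92 ± 0.11, edgeR adjusted p = 0.000691). LOC725699 had few reads, 17 and 11 in queens and 43 and 34 in workers (-1.91 ± 0.34, edgeR adjusted p = 0.0208). LOC100578899 had 45 and 50 reads in queens and 134 and 116 in workers (-1.85 ± 0.20, edgeR adjusted p = 0.00479). In each of these genes, as in LOC551319, both worker samples lay above both queen samples. Lack of overlap between castes in RPKM was a condition for naming them, so it adds nothing to the calls. Without worker replicate 2 the edgeR adjusted p was 0.0614 for LOC551319, 0.0513 for LOC100578899 and 0.0983 for LOC725699, and without worker replicate 1 it was 0.109 for LOC725699.

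Among the abundant genes, LOC552249 had scaled RPKM of 146 and 167 in queens and 366 and 364 in workers, with a log2 fold change of -1.22. LOC412111 had 373 and 352 in queens and 663 and 620 in workers (-0.82). LOC408551 and LOC408552, both of 27 exons, lie next to each other with 1228 bases between them. LOC408551 had scaled RPKM of 129 and 170 in queens and 299 and 267 in workers (-0.92), and LOC408552 had 90.4 and 112 against 191 and 166 (-0.82). Neither passed without worker replicate 1 (edgeR adjusted p = 0.104 and 0.0970) or worker replicate 2 (0.0960 and 0.0828). LOC410637, on the other side of LOC408551 at 3153 bases, differed by -0.32 on the log2 scale, which did not pass the test. Of 19 neighbouring pairs of many-exon genes within 50000 bases, only LOC408551 and LOC408552 were both called.

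At intermediate levels, LOC410793 had 1652 and 1520 reads in queens and 3619 and 3088 in workers (-1.54). LOC409655 had 728 and 743 against 1360 and 1598 (-1.47). LOC409722, with 49 exons, had scaled RPKM of 30.6 and 31.9 in queens and 80.6 and 52.7 in workers (-1.09). Its worker samples differed from each other by more than its queen samples did, and both lay above the queens.

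The 27 genes higher in workers had a median log2 fold change of -1.11, and 16 differed by more than 1 on the log2 scale. The smallest difference was that of LOC552074 (-0.52), whose RPKM without TMM scaling were level at 21.8, 22.0, 21.9 and 22.1, and which reversed to 0.02 with library totals. LOC409012 (brp) had 60 and 60 reads in queens and 79 and 73 in workers, with a log2 fold change of -0.80 and an edgeR adjusted p of 0.0467. That call was lost in 9 of 12 alternatives, among them the DESeq2 Wald test (adjusted p = 0.141) and the omission of any 1 sample (edgeR adjusted p between 0.113 and 0.177). The 31 called genes of both directions had no overlap between castes in scaled RPKM. Of the 157 tested, 63 (40.1%) had both worker values above both queen values and 37 (23.6%) the opposite, against 32.1% and 31.6% of all genes.

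**Figure D2:**
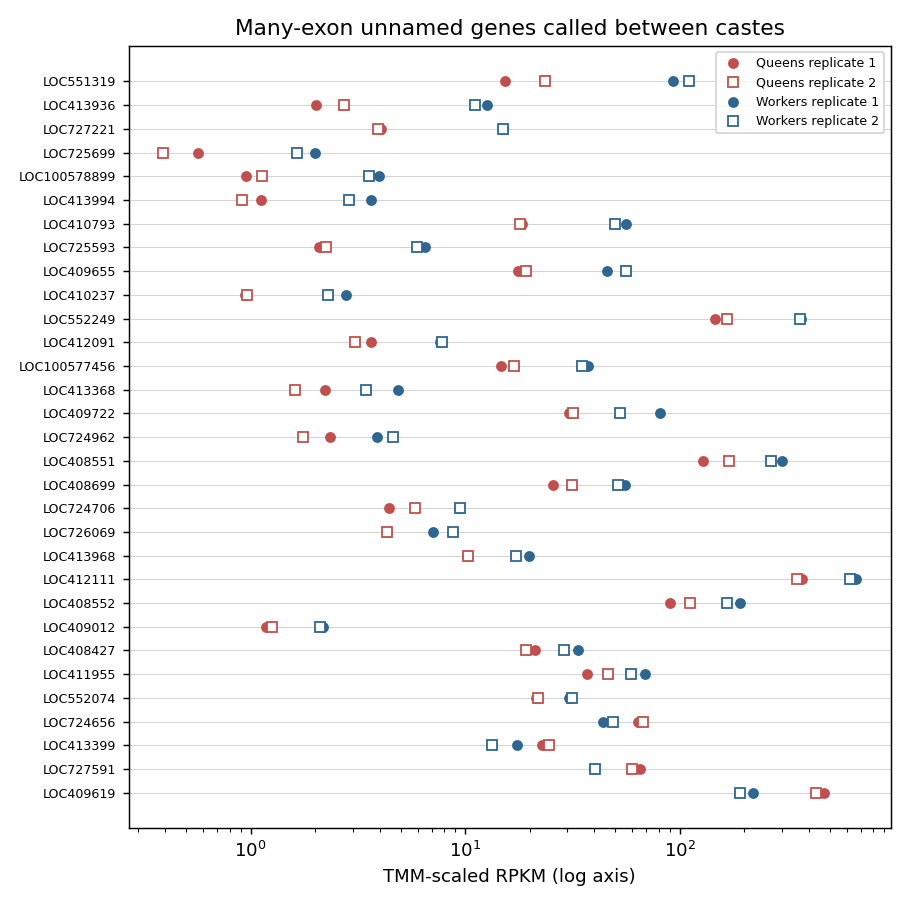
TMM-scaled RPKM (log axis) of the 31 called many-exon genes, with 1 point per sample, ordered by log2 fold change from -2.39 (LOC551319) to 1.14 (LOC409619). In the upper 27 genes both worker samples lie right of both queen samples, and in the lower 4 genes they lie left.

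The 4 genes higher in queens were LOC409619, LOC727591, LOC413399 and LOC724656. LOC409619 (31 exons; scaffold NW_003378077, positions 1247915 to 1269870), which followed LOC412111 in abundance, was measured with 25062 and 21450 reads in queens and 8346 and 6976 in workers. Its scaled RPKM were 473 and 433 against 220 and 191, a log2 fold change of 1.14 ± 0.11 (SE, n = 2 and 2; edgeR adjusted p = 0.00371). LOC727591 had scaled RPKM of 65.2 and 60.0 in queens and 39.8 and 40.4 in workers (0.64 ± 0.10, edgeR adjusted p = 0.0146). LOC413399 had 22.8 and 24.7 against 17.4 and 13.4 (0.63 ± 0.16, edgeR adjusted p = 0.0483), and LOC724656 64.2 and 67.8 against 43.8 and 48.9 (0.51 ± 0.11, edgeR adjusted p = 0.0325). LOC409619 passed with any 1 sample left out. Without worker replicate 1 or 2 the edgeR adjusted p was 0.0703 and 0.0777 for LOC727591, 0.0552 and 0.123 for LOC413399, and 0.0972 and 0.0775 for LOC724656. Without queen replicate 2 it was 0.0590 for LOC413399 and 0.0952 for LOC724656.

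Several abundant or exon-rich genes did not pass the test. LOC551947 (54 exons) had scaled RPKM of 8.43 and 8.96 in queens and 8.85 and 8.69 in workers (-0.01 ± 0.10 on the log2 scale). LOC552031 had 75.2 and 75.2 against 78.9 and 80.3 (-0.08 ± 0.09). LOC408889 had 165 in both queen samples and 144 and 119 in workers, and the difference of 0.33 (log2) missed the threshold (edgeR adjusted p = 0.116). LOC726567 (SPG11) had 211 and 215 reads in queens and 128 and 140 in workers, which after scaling came to 0.20 on the log2 scale (edgeR adjusted p = 0.406).

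Other genes that did not pass the test had larger standard errors. LOC727192 had 1496 and 8772 reads in queens and 4695 and 2757 in workers, so that the queen samples lay on both sides of the workers (log2 fold change 0.04 ± 0.79). LOC410775, annotated by the study as similar to wing blister, a laminin alpha chain of Drosophila, had scaled RPKM of 10.6 and 16.7 in queens and 10.2 and 4.38 in workers (0.90 ± 0.42, edgeR adjusted p = 0.202). LOC410756 had 46 and 33 reads in queens and 12 in each worker sample (1.24 ± 0.34, edgeR adjusted p = 0.0601).

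Junction reads made up 17.5% and 16.8% of the exon reads of many-exon genes in queens and 16.9% and 16.1% in workers. In genes with fewer exons they made up 15.3% and 15.2% in queens and 15.3% and 15.2% in workers. The share was higher in many-exon genes in all 4 samples, by 1.57 percentage points on average. The exact sign-flip test gave p = 0.12, the smallest that 4 samples allow. All 4 samples count the same genes, chosen by exon number, which itself sets how many reads can cross a junction. No conclusion about the sets is therefore drawn from that test. Without the 2 many-exon genes with most reads the difference was 0.93 percentage points. Queens exceeded workers by 0.67 percentage points in many-exon genes, with overlapping samples (exact permutation test, two-sided, p = 0.667). The median share over genes was 18.0% in many-exon genes and 14.9% in genes with fewer exons.

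The number and length of exons set how many reads of 50 bases can cross a junction. If reads began evenly along the joined exons, the expected share would be the number of junctions times 49 start positions, divided by all start positions. The median expectation was 20.2% for many-exon genes and 13.6% for genes with fewer exons, and the median ratio of observed to expected share was 0.933 and 1.06. Of 150 many-exon genes with at least 100 reads, 130 lay within 1.5 times of the expectation, 17 below and 3 above.

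The largest departures were in single genes. LOC412002 (30 exons; scaffold NW_003378099, positions 47000 to 66373) had 146 of 147, 158 of 160, 126 of 128 and 71 of 72 exon reads on junctions, 98.8% in all against an expected 21.9%. Its span overlaps 3 other annotated genes. LOC410171 (40 exons) had 40.6% junction reads against an expected 20.96%, between 39.9% and 42.5% in every sample, and overlaps BMS1 and LOC408282. LOC100578885 (22 exons) had 32.4% against an expected 13.9%, and overlaps LOC100578429. Among genes with at least 100 reads LOC414017 had the third highest share, 33.8%, but its expectation was 30.1%. At the other end, LOC409836 had 9 junction reads among 859 (1.05% against an expected 13.8%). LOC727192 had 79, 86, 63 and 61 junction reads in the order queens 1 and 2, workers 1 and 2, while its exon reads varied between 1496 and 8772. Its junction share was 1.63% against an expected 23.4%. LOC551319 had 1.78% against an expected 5.80%. The part of overlapping genes, of unevenly covered exons and of the annotation in these shares was not tested.

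**Figure D3:**
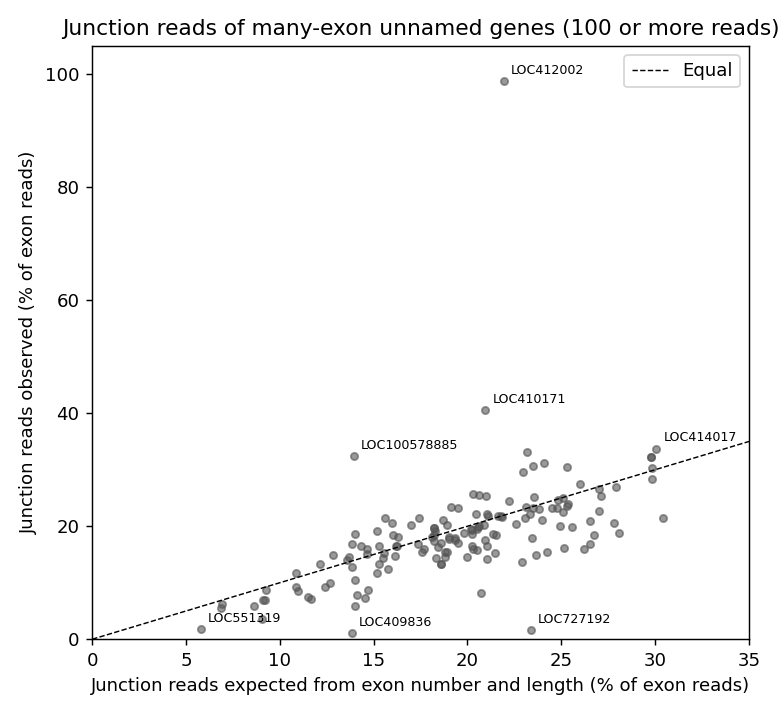
Observed against expected junction reads, as percent of exon reads, for the 150 many-exon genes with at least 100 reads, summed over samples; the dashed line marks equality. LOC412002 stands at 98.8%, and LOC727192 and LOC409836 lie near 0 at expectations of 23.4% and 13.8%.

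The balance of junction reads to other exon reads differed between castes in 1 many-exon gene of 133 tested. That was 0.752% with a relative excess in workers and none in queens, against 0.105% and 0.280% of the 5717 genes tested in all. At an unadjusted p below 0.05 there were 10 (7.52%), against 5.89% of all genes tested. In LOC408699 (21 exons; scaffold NW_003378082, positions 1032175 to 1054195) junction reads were 12.8% and 12.2% of exon reads in queens and 24.1% and 21.8% in workers. The interaction was -1.06 ± 0.14 on the log2 scale (edgeR, adjusted p = 1.14e-05).

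Reads outside exons were counted within the deposited gene region, which reaches 500 bases past the gene on each side where the scaffold allows, so these non-exon reads come from introns and flanks. In genes with 1 exon, which have only flanks, they were 5.24% and 5.13% of region reads in queens and 3.89% and 4.08% in workers. In many-exon genes they were 11.7% and 12.3% in queens and 10.7% and 14.0% in workers. The castes overlapped (exact permutation test, two-sided, p = 1). In genes with fewer exons the shares were 15.1% and 15.3% in queens and 14.3% and 16.9% in workers. The summed share was lower in many-exon genes in all 4 samples, by 3.20 percentage points on average (exact sign-flip test, p = 0.12, the smallest possible). Since the 4 samples count the same genes, no conclusion about the sets is drawn from that test. The median over genes, however, was higher in many-exon genes, 8.69% against 7.11%. The order of the sets therefore depends on how genes are weighted, and without the 2 many-exon genes with most reads the summed difference was -0.93 percentage points.

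Most reads lay outside exons in 14 many-exon genes (8.59%), a share close to that of genes with fewer exons (9.14%). LOC100578899 (43 exons) had 95.4% non-exon reads, LOC410756 89.3% and LOC724356 81.9%. In LOC724172, with 52 exons, the share was 75.8%. Of these, LOC724356 and LOC724172 each overlap 2 other annotated genes and the others overlap none. The 46 many-exon genes that overlap another gene had a median non-exon share of 15.3% and the other 117 of 7.73%. Of the 14 genes with most reads outside exons, 4 overlap another gene, as do 46 of all 163. Counting was not stated to use strand, so reads from overlapping genes cannot be told apart.

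The ratio of non-exon to exon reads was relatively higher in queens in 3 of 113 tested many-exon genes (2.65%) and in workers in none, against 1.02% and 1.32% of the 4229 genes tested in all. At an unadjusted p below 0.05 there were 13 (11.5%), against 13.0% of all genes tested. LOC409530 (20 exons; scaffold NW_003378249, positions 76221 to 108768) had the largest difference. Its exon reads were level, with scaled RPKM of 8.59 and 9.43 in queens and 8.67 and 8.06 in workers (log2 fold change 0.11, edgeR adjusted p = 0.660). Its non-exon reads were 220 and 182 in queens and 12 and 4 in workers, that is 53.1% and 47.8% of region reads against 7.89% and 3.10%. The interaction was 4.07 ± 0.38 on the log2 scale (edgeR adjusted p = 5.27e-05). Its span without the flanks overlaps no other annotated gene, and its junction balance was -0.15 between castes (edgeR adjusted p = 0.964).

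In LOC408699 the non-exon share was 75.8% and 75.4% in queens and 57.5% and 64.7% in workers (interaction 0.98 ± 0.20, edgeR adjusted p = 0.0206). Without queen replicate 1 this difference no longer passed the test. LOC408699 was thus called in all measures. Its exon reads were higher in workers (755 and 863 in queens against 1166 and 1038). Its junction reads were higher in workers relative to other exon reads, and its non-exon reads higher in queens relative to exon reads. These measures share reads and are not independent. The exon difference (log2 -0.90) did not pass the test without worker replicate 1 (-0.85) or worker replicate 2 (-0.96). In LOC100578899 the non-exon reads were 1811 and 1969 in queens and 1056 and 2311 in workers, while its exon reads were 45 and 50 against 134 and 116 (interaction 1.66 ± 0.36, edgeR adjusted p = 0.0304). The non-exon reads themselves overlapped between castes in LOC100578899. In LOC408699 they were 2362 and 2652 in queens and 1577 and 1902 in workers. Relative to the TMM-scaled exon totals they overlapped there too.

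**Figure D4:**
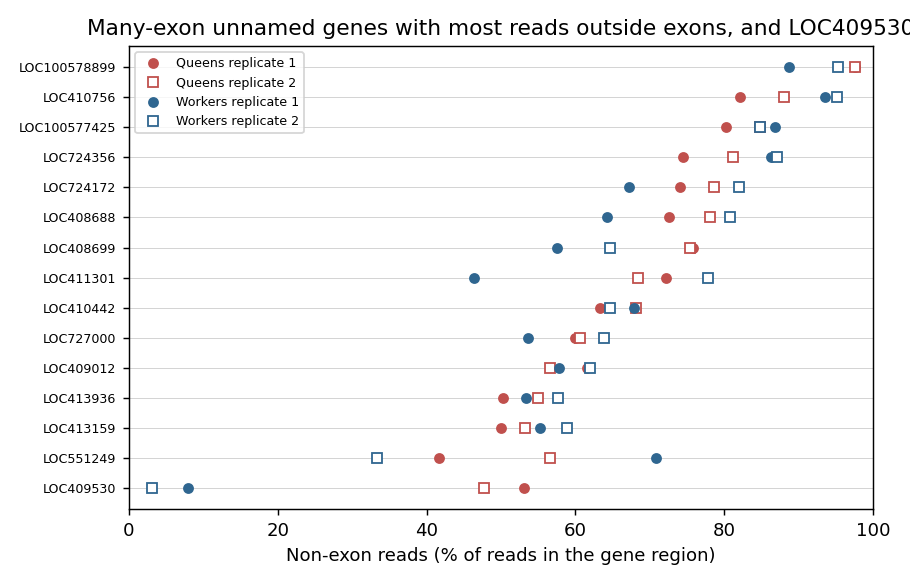
Non-exon reads as percent of all reads in the gene region, 1 point per sample, for the 14 many-exon genes with over 50% non-exon reads in all and for LOC409530. The queen samples of LOC409530 lie at 53.1% and 47.8% and the worker samples at 7.89% and 3.10%.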

How the data were processed

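Reads of 50 bases were aligned by the authors in CLC Genomics Workbench to the Amel_4.5 assembly. The deposited table gives, per gene and sample, counts of exon reads, single-match exon reads, reads in the gene region and exon-exon junction reads, and the RPKM. The deposited RPKM was found to divide exon reads by exon length and by all reads in gene regions. The other deposited columns used are numbers of exons and transcripts, exon lengths and positions. The authors' fold changes, test statistics and p-values, and a second table of transcripts the authors called, were not used.

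Non-exon reads are region reads less exon reads. For 137 of 190 genes with 1 exon the region was 1000 bases longer than the exon, so 500 bases on each side were trimmed before overlaps were counted.

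Exon counts were tested with edgeR 4.0.16 (R 4.3.3; TMM, filterByExpr, quasi-likelihood test). Junction reads against other exon reads, and non-exon against exon reads, were tested as interactions with caste, with a term for each library. Tests ran over all genes with Benjamini-Hochberg adjustment at 0.05. The fits were tested on simulated counts with few changed genes, nearly balanced between the castes. That check does not bear on the choice of scaling. Standard errors are the fold change over the root of its F statistic. Alternatives included DESeq2 1.42.0, other scalings and filters, single-match reads, a replicate block and leaving out each sample.

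Named genes are the 10 with most exons, the 10 with the highest RPKM, up to 5 called in each direction with castes not overlapping in RPKM, the extremes of junction and non-exon share at 100 or more reads, those called in the interactions and the 3 with the lowest single-match share. Other genes named were chosen after their values were seen. The rule, members and lists were chosen with earlier results of these data known. RefSeq product names and sequences were not used here, and 2 genes carry a description from the study's own annotation. Tables were made with pandas 2.3.3 and plots with matplotlib 3.10.9.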

Additional observations from a re-analysis of the deposited data

How the results depend on the processing

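The percent of tested many-exon genes called higher in queens (2.55%) became 40.1% with library totals (47.3% of all genes), 13.4% with library totals without the 10 most abundant genes (18.2% of all genes), 4.29% with the DESeq2 Wald test (5.51% of all genes), 0.637% at an adjusted p below 0.01 and 4.20% for genes with at least 15 exons. It ranged from 0.629% to 4.43% when each sample was left out. The percent called higher in workers (17.2%) became 8.28% with library totals, 8.92% at an adjusted p below 0.01 and 29.6% for genes with at least 30 exons, and ranged from 6.29% to 17.1% when each sample was left out. Where a sample was left out, the lone sample of its caste was assumed to vary like the others. With library totals the share of all genes called higher in workers also fell, from 12.0% to 6.20%. Without either worker replicate the shares of all genes fell too, in both directions. Without queen replicate 1 the share toward queens rose in many-exon genes and fell over all genes. At an adjusted p below 0.01 the shares were not compared with all genes. These shifts are not read as particular to many-exon genes. Whether they are was not tested, nor was their cause. The DESeq2 size factors changed none of the 31 calls, and the filter of at least 10 reads in every sample none. Without worker replicate 1, 18 of the 31 calls were lost, and without worker replicate 2, 20. LOC552074 turned to 0.0182 on the log2 scale with library totals.

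The replicate numbers do not pair the samples, which were different larvae. The correlation of deviations between samples of the same number was -0.04. Deviations from the mean of 2 samples mirror each other, so both numbers give this same value. With a replicate block 1.91% of many-exon genes were called higher in queens and 15.9% in workers (5.16% and 10.5% of all genes). In the non-exon test the block gave 4 genes higher in queens and 5 in workers, and over all genes 121 and 168 in place of 43 and 56. Without a filter beyond 1 read of each kind 2 were higher in workers, and leaving out each sample gave 1 to 4 higher in workers and 2 to 4 in queens. LOC408699 was no longer called there without queen replicate 1. In the junction test LOC408699 was called in every alternative run, and leaving out each sample gave 1 to 2 genes higher in workers and 0 to 1 in queens.

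The summed non-exon share of many-exon genes less that of genes with fewer exons (-3.20 percentage points) reversed to 9.65 with the limit at 15 exons, where LOC724238 (15 exons) alone added 210131 non-exon reads, and to 2.12 by the median over genes. The junction difference between the sets reversed to -0.83 with the limit at 30 exons. Queens less workers, the junction share reversed to -0.92 by the median over genes, with a range of 0.28 to 1.06 when each sample was left out, and the non-exon share (-0.36) ranged from -1.99 to 1.28. It reversed to 0.21 without the 2 genes with most reads, an alternative chosen after seeing the data, as was leaving out genes whose junction share was under 0.1 or over 4 times the expected, which reversed nothing. The 2 samples per caste limit all of these comparisons.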
